A study of Homo sapiens with 12 samples.

Results

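The CC chemokine ligands examined here are CCL2, CCL3, CCL4, CCL4L2, CCL5, CCL7, CCL8, CCL20 and CCL22, chosen by gene symbol, 9 of the 78932 genes in the deposited tables. CC chemokines are small secreted proteins, named for a pair of adjacent cysteines near the amino end, that bind G protein-coupled receptors on leukocytes and steer their migration. In monocytes and macrophages many of these genes are switched on by Toll-like receptor signalling, through NF-kB directly and through the interferon that such cells release. CCL2, CCL7 and CCL8 are the monocyte chemoattractant proteins that act through CCR2, while CCL3 and CCL4 are the macrophage inflammatory proteins, and CCL3 and CCL5 act through CCR1. CCL20 is the ligand of CCR6, found on dendritic cells and some lymphocytes, and CCL22 is a ligand of CCR4, found on regulatory and type 2 helper T cells.

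RNA was measured in THP-1, an established human line from a monocytic leukaemia, in 4 groups of 3 libraries. NC cells were untreated. LPS cells received lipopolysaccharide, the TLR4 agonist, and ATP, which opens the P2X7 channel. CE cells received lipopolysaccharide and ATP together with cyclosporin A (CsA in the labels), which inhibits calcineurin, and eltrombopag, a thrombopoietin receptor agonist that also chelates iron. CEL cells received all 4 of these agents plus luspatercept, a trap for activin-like ligands. No group received a single drug, so the parts played by cyclosporin A and eltrombopag cannot be told apart. The labels give no doses or times, and none says whether the 3 libraries of a group came from separate cultures. Columns for CE were matched to their samples as the only treated group left, so values for CE rest on that matching.

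Libraries held 17737240 to 23183474 estimated counts, and 21775 to 26123 genes had a count. Levels within a gene are given as CPM, counts relative to library size after TMM scaling, and levels between genes as TPM, which divides by gene length. A gene is said to rise or fall where the adjusted p of edgeR's quasi-likelihood test over 14065 genes is under 0.05, and changes are log2 values ± SE with n = 3 libraries per group. All 9 chemokine genes passed the filter on low counts over the 4 groups, but in NC alone only 3 (CCL2, CCL5 and CCL22) would have passed it. The others entered through the groups where they are high, so the counts of rises below describe the members and support nothing further. The same holds for each adjusted p of those others against NC, and for any other gene below that filter in either group of a comparison. CCL7 was also below it in CEL, so its calls there, and its place in the counts of falls, are descriptive only. Rows for 5.8S ribosomal RNA held 17.0% of all TPM in library NC 3 and 14.4% in LPS 1, against 0.0225 to 0.0692% in the other 10, which lowers the TPM of every other gene in those 2 libraries. Library CE 2 also stood apart, its counts differing from CE 1 and CE 3 by a chi-square per degree of freedom of 55.5 and 37.8, against 6.45 between CE 1 and CE 3. For NC 3 and LPS 1 against the others of their groups it was 94.6 to 145. Of 10 monocytic markers, 8 reached 1 CPM in NC and 9 in each of the other groups, with CD68, a macrophage lysosomal protein, at 69.5 ± 2.34 CPM in NC and 155 ± 3.67 in LPS. Summed markers of B cells, of the erythroid and megakaryocyte lineages, and of stromal, epithelial and endothelial cells stayed at or below 1.83 CPM in every library. Summed T and NK cell markers lay between 1.99 and 7.19 CPM, of which NKG7 alone reached 1 CPM, and CD3D, CD3E and CD3G had 0 counts in LPS and CE. All of these CD3 genes had counts in NC, as did CD3D and CD3G in CEL, with group means below 1 CPM.

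Of the 9 genes, 7 lie on chromosome 17 in a run that also includes CCL3L3, a near-identical copy of CCL3, and the positions below follow GENCODE 29 on GRCh38. CCL2 (chr17:34255218-34257203, plus strand), CCL7 (chr17:34270221-34272242, plus) and CCL8 (chr17:34319036-34321402, plus) follow in that order, with 13017 bases between CCL2 and CCL7 and 46793 between CCL7 and CCL8. Only the 9 members and CCL3L3 were placed, so other genes may lie between them. CCL5 (chr17:35871491-35880793, minus) lies 1550088 bases beyond CCL8. CCL3 (chr17:36088256-36090169, minus) and CCL4 (chr17:36103590-36105621, plus) are 13420 bases apart, and CCL3L3 (chr17:36194869-36196758, minus) and CCL4L2 (chr17:36210924-36212878, plus) repeat that arrangement with 14165 bases between them. CCL20 is on chromosome 2 (chr2:227805739-227817564, plus) and CCL22 on chromosome 16 (chr16:57358772-57366190, plus).

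Start-site sequence from RefSeq (GRCh38.p14) matched 5 of the 9 members, CCL3, CCL7, CCL8, CCL20 and CCL22, and the copy CCL3L3. The 150 bases upstream of each start are printed for all of these, as the other members had no entry. They include the gene with the steepest fall after drugs (CCL8) and one that passed the test in no comparison when all libraries were fitted (CCL22). Sequences run 5′ to 3′ on the gene's own strand in lower case, and capitals mark every match to the motifs searched.
CCL7: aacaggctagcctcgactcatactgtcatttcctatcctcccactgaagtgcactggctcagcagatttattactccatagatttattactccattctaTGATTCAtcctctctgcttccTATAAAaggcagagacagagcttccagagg
CCL8: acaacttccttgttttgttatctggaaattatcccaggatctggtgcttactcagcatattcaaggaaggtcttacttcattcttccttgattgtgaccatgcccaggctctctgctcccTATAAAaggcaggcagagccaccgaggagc
CCL3: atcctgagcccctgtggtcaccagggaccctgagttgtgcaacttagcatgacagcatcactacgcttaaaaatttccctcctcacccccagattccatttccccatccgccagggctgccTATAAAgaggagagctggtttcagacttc
CCL3L3: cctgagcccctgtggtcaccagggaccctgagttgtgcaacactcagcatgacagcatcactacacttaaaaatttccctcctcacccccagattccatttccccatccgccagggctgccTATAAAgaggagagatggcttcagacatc
CCL20: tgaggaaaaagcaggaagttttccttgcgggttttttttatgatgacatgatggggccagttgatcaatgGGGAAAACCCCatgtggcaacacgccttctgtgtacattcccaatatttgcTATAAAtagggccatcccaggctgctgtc
CCL22: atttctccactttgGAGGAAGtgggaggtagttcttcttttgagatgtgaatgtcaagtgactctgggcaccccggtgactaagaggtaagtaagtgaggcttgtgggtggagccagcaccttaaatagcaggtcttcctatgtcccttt

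These windows are chr17:34270071-34270220 for CCL7 and chr17:34319285-34319434 for CCL8, both on the plus strand. They are chr17:36090144-36090293 for CCL3 and chr17:36196759-36196908 for CCL3L3, both on the minus strand, and chr2:227813692-227813841 for CCL20 and chr16:57358633-57358782 for CCL22, both on the plus strand. Motifs were searched on both strands of the 300 bases from 250 before to 50 after the start. TATAAA, the TATA box, occurred 29 or 30 bases upstream in CCL3, CCL3L3, CCL7, CCL8 and CCL20 and nowhere in the CCL22 window, and 11.5% of 35116 RefSeq windows of the same length hold it. The NF-kB-like patterns were GGG and TTCC with any 3 bases between (in 6.52% of windows), and GGG, any 2 bases, TT, any base and CC (in 5.68%). Both matched only CCL20, in overlapping positions on the reverse strand 79 and 80 bases upstream. TGANTCA, an AP-1-like pattern in 7.71% of windows, matched CCL7 at 51 bases upstream. GAGGAAG, a PU.1-like pattern in 13.6% of windows, matched CCL22 at 136 bases upstream and CCL7 on the reverse strand at 201, outside the printed stretch. The pattern GAAA, any 2 bases and GAAA, resembling an interferon-stimulated response element and present in 3.57% of windows, matched none of the 6. The CCL3 and CCL3L3 windows were identical at 277 of 306 aligned positions (90.5%).

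**Figure D1:**
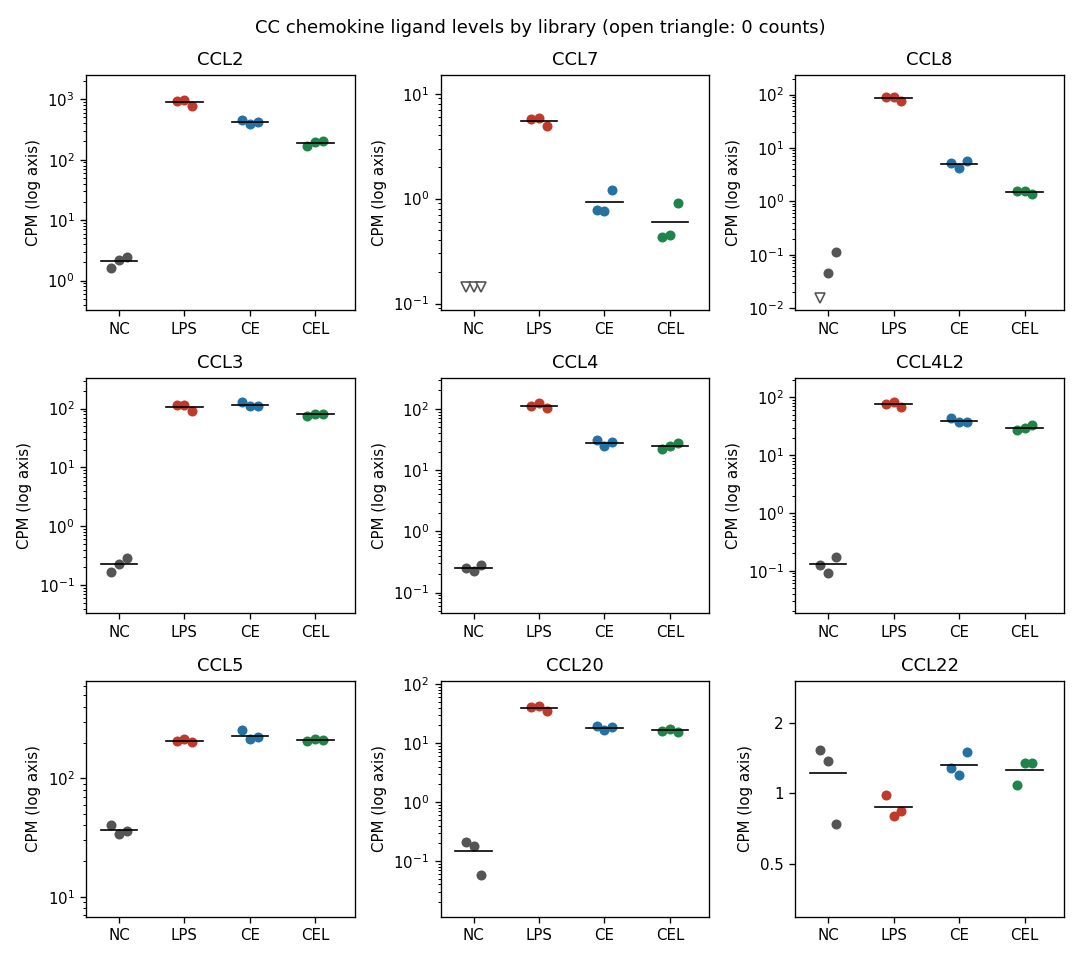
CPM of each of the 9 chemokine genes in each of the 12 libraries (log axis, 1 panel per gene; bars are group means, drawn where no library is at 0, and open triangles mark 0 counts). CCL8 drops from 85.0 CPM in LPS to 5.03 in CE and 1.49 in CEL, CCL5 lies between 201 and 253 in the libraries of all 3 stimulated groups, and the CCL22 groups lie close together.

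Lipopolysaccharide with ATP raised 8 of the 9 chemokine genes and lowered none, and CCL22 did not pass the test. Of all genes tested in that comparison 45.9% changed, 22.4% rising and 23.5% falling. The median log2 change of the 9 was 8.78, or 8.77 with CCL7 at its bound, beside -0.01 over all tested genes. In CE, 6 of the 9 were lower than in LPS and none was higher, where 49.6% of all genes tested changed, 20.7% lower and 28.8% higher. The median of the 9 was -1.10, beside 0.08 over all genes. In CEL, 7 of the 9 were lower than in LPS and none higher, where 55.9% of all genes changed, 27.2% lower and 28.7% higher, and the medians were -1.34 and -0.03. In CEL against CE, 4 of the 9 were lower and none higher, where 23.6% of all genes changed, 14.8% lower and 8.78% higher, with medians of -0.40 and -0.09. Both drug comparisons share the LPS libraries, so their values are given side by side. Against NC, 8 of the 9 were higher and none lower in CE, where 64% of all genes changed, 34.6% higher and 29.4% lower. In CEL against NC the counts of members were the same, where 67% of all genes changed, 34% higher and 33% lower. With upper quartile scaling 3571 genes were higher and 5646 lower in CE against NC, beside 4869 and 4139, and 3828 and 5805 in CEL against NC, beside 4778 and 4647. In bulk RNA, fewer expressing cells and less RNA per cell cannot be told apart.

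Among the ligands of CCR2, CCL2 stood at 1.62, 2.15 and 2.45 CPM in NC and at 950, 974 and 778 in LPS. It stood at 459, 387 and 417 in CE and at 168, 197 and 204 in CEL. The 4 groups did not overlap, and each drug group lay below LPS and far above NC. CCL2 rose 439-fold with the stimulus (8.78 ± 0.17, edgeR adjusted p = 5.99e-12). It was 2.14-fold lower in CE than in LPS (-1.10 ± 0.11, edgeR adjusted p = 1.03e-05) and 4.75-fold lower in CEL (-2.25 ± 0.12, edgeR adjusted p = 3.25e-08). The step from CE to CEL was a further 2.22-fold fall (-1.15 ± 0.11, edgeR adjusted p = 4.46e-05).

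CCL8 showed the largest fall of the 9 in both drug groups. It had 0, 1 and 2 counts in the NC libraries, and reached 90.5, 90.2 and 74.4 CPM in LPS. It stood at 5.22, 4.14 and 5.73 CPM in CE and at 1.56, 1.55 and 1.34 in CEL. LPS, CE and CEL formed 3 separate levels, and CEL remained above NC (edgeR adjusted p = 9.11e-07). The ratio of LPS to NC was 1793 with a 95% counting interval of 613 to 8698, because it rests on 3 counts in NC. The fitted log2 rise of 10.64 became 10.01 without NC 1 and 11.57 without NC 3. CCL8 was 16.9-fold lower in CE than in LPS (-4.08 ± 0.19, edgeR adjusted p = 1.85e-08) and 56.9-fold lower in CEL (-5.83 ± 0.21, edgeR adjusted p = 2.02e-09). From CE to CEL it fell a further 3.37-fold (-1.75 ± 0.20, edgeR adjusted p = 0.00012).

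CCL7 was the least abundant of the 3. It had 0 counts in every NC library and stood at 5.75, 5.82 and 4.93 CPM in LPS, at least 116-fold higher against a floor of 3 counts over the NC group (edgeR adjusted p = 1.02e-06). It stood at 0.787, 0.770 and 1.20 CPM in CE, 5.94-fold below LPS (-2.57 ± 0.31, edgeR adjusted p = 9.2e-05). In CEL it stood at 0.433, 0.451 and 0.913 CPM, 9.20-fold below LPS (-3.20 ± 0.32, edgeR adjusted p = 2.17e-05). CCL7 was below the filter on low counts in CEL, so its adjusted p values there describe it and support nothing further. CE and CEL overlapped through library CEL 3, and their difference of -0.63 ± 0.34 did not pass (edgeR adjusted p = 0.223). Without CEL 3 that difference was -1.05 and passed (edgeR adjusted p = 0.0438).

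**Figure D2:**
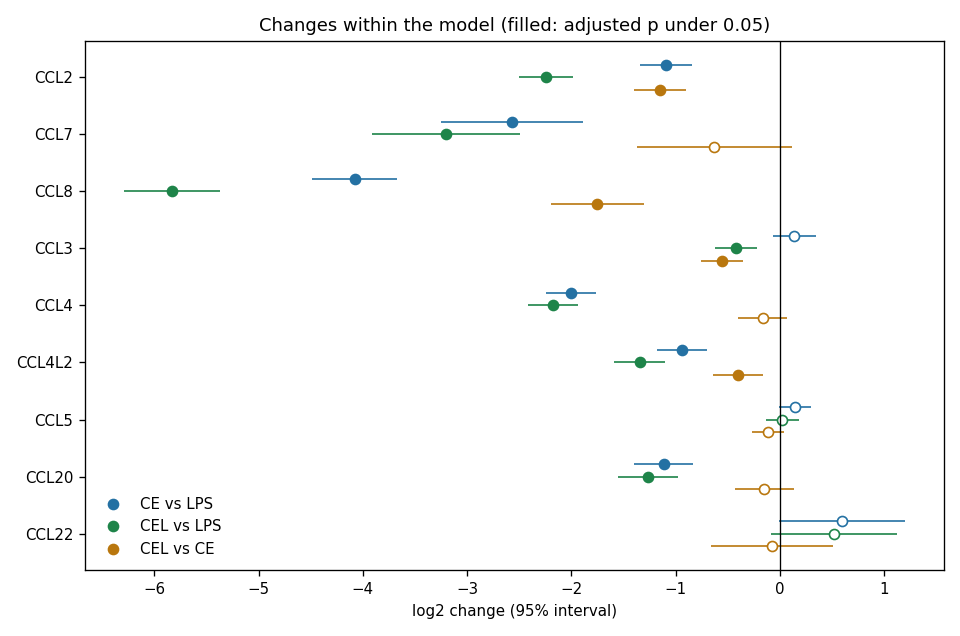
Log2 change of each of the 9 chemokine genes, with bars of the 95% interval, in CE against LPS, CEL against LPS and CEL against CE (filled points have an adjusted p under 0.05, open points do not). CCL8 lies lowest in all 3 (-4.08, -5.83 and -1.75), and CCL3, CCL5 and CCL22 are open in CE against LPS (0.14, 0.14 and 0.59).

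Of the macrophage inflammatory proteins and CCL5, CCL4 and CCL4L2 fell in both drug groups, CCL3 in CEL only, and CCL5 in neither. CCL3, also called MIP-1 alpha, stood at 0.166, 0.228 and 0.285 CPM in NC, and at 113, 114 and 92.5 in LPS. It stood at 127, 111 and 112 CPM in CE and at 75.0, 81.0 and 82.3 in CEL. LPS and CE overlapped, and every CEL library lay below every library of both. CCL3 rose 469-fold with the stimulus (8.87 ± 0.16, edgeR adjusted p = 3.2e-12), a value that rests on 14 counts in NC. Its difference between CE and LPS was 0.14 ± 0.09, with a 95% interval of -0.07 to 0.34 (edgeR adjusted p = 0.251), an interval that leaves out falls of the size seen in CCL2. It was 1.34-fold lower in CEL than in LPS (-0.42 ± 0.09, edgeR adjusted p = 0.00225) and 1.47-fold lower than in CE (-0.56 ± 0.09, edgeR adjusted p = 0.0013). Both calls were lost with limma on log2(TPM + 1), at adjusted p = 0.188 and 0.0766, and on log2(TPM + 0.1), at 0.258 and 0.133.

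CCL4, or MIP-1 beta, lies near CCL3 on the opposite strand. It stood at 0.249, 0.228 and 0.285 CPM in NC and at 113, 123 and 103 in LPS, a rise of 438-fold (8.77 ± 0.17, edgeR adjusted p = 5.99e-12). The rise of CCL4 rests on 16 counts in NC. It stood at 31.4, 24.7 and 28.4 CPM in CE and at 22.2, 25.1 and 27.9 in CEL. Both drug groups lay well below LPS and overlapped each other. CCL4 was 4.02-fold lower in CE than in LPS (-2.01 ± 0.11, edgeR adjusted p = 6.12e-08) and 4.51-fold lower in CEL (-2.17 ± 0.11, edgeR adjusted p = 2.21e-08). CEL and CE differed by -0.17 ± 0.11, with a 95% interval of -0.40 to 0.06 (edgeR adjusted p = 0.291).

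CCL4L2, a near-identical copy of CCL4, stood at 0.125, 0.0913 and 0.171 CPM in NC and at 77.3, 83.3 and 68.3 in LPS. It stood at 44.6, 36.9 and 37.7 CPM in CE and at 26.7, 29.8 and 33.6 in CEL, and no groups overlapped. It rose 577-fold with the stimulus (9.17 ± 0.19, edgeR adjusted p = 1.06e-11), a value that rests on 8 counts in NC. CCL4L2 was 1.92-fold lower in CE than in LPS (-0.94 ± 0.11, edgeR adjusted p = 2.7e-05) and 2.54-fold lower in CEL (-1.34 ± 0.11, edgeR adjusted p = 1.21e-06). From CE to CEL it fell 1.32-fold (-0.40 ± 0.11, edgeR adjusted p = 0.0213). That last call was lost in 12 of 21 alternatives, with adjusted p from 0.00605 to 0.375 over all of them. With the replicate number as a block it was 0.0507. It was 0.0651 without NC 3, 0.0595 without LPS 2, 0.148 without CE 1 and 0.0886 without CE 3. Without CEL 1 it was 0.170, and without CEL 2 it was 0.134.

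CCL5, or RANTES, was the one member already abundant in untreated cells. It stood at 40.1, 34.2 and 35.7 CPM in NC, at 207, 216 and 201 in LPS, at 253, 212 and 222 in CE and at 208, 215 and 211 in CEL. NC lay below all stimulated libraries, and the 3 stimulated groups lay close together. CCL5 rose 5.67-fold with the stimulus (2.50 ± 0.07, edgeR adjusted p = 2.1e-10), the smallest rise among the 8 that rose. CE differed from LPS by 0.14 ± 0.07, with a 95% interval of -0.01 to 0.29 (edgeR adjusted p = 0.122), and without CE 2 the difference was 0.20 and passed (edgeR adjusted p = 0.0239). CEL differed from LPS by 0.02 ± 0.07, with a 95% interval of -0.13 to 0.18 (edgeR adjusted p = 0.809). CEL and CE differed by -0.12 ± 0.07 (edgeR adjusted p = 0.267). With upper quartile scaling or library size alone, the differences of CCL5 and CCL3 between CE and LPS turned to between -0.035 and -0.015, and that of CCL5 between CEL and LPS to -0.11 and -0.089.

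CCL20 stood at 0.208, 0.183 and 0.0571 CPM in NC and at 41.5, 43.4 and 35.0 in LPS, a rise of 246-fold (7.94 ± 0.21, edgeR adjusted p = 6.75e-11). The rise of CCL20 rests on 10 counts in NC. It stood at 19.8, 17.0 and 18.6 CPM in CE and at 16.4, 17.7 and 15.8 in CEL. Every library of both drug groups lay below every LPS library, and the drug groups overlapped each other. CCL20 was 2.16-fold lower in CE than in LPS (-1.11 ± 0.13, edgeR adjusted p = 2.37e-05) and 2.40-fold lower in CEL (-1.27 ± 0.13, edgeR adjusted p = 6.42e-06). CEL and CE differed by -0.15 ± 0.13, with a 95% interval of -0.44 to 0.13 (edgeR adjusted p = 0.442).

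CCL22 stayed low throughout. It stood at 1.54, 1.37 and 0.742 CPM in NC, at 0.982, 0.804 and 0.844 in LPS, at 1.28, 1.20 and 1.49 in CE and at 1.08, 1.35 and 1.34 in CEL. NC overlapped every other group, with library NC 3 its lowest, while every CE and CEL library lay above every LPS library. LPS differed from NC by -0.48 ± 0.27 (edgeR adjusted p = 0.176), but without NC 3 the difference was -0.75 and passed (edgeR adjusted p = 0.0283). CE differed from LPS by 0.59 ± 0.27 (edgeR adjusted p = 0.0943), which without NC 3 passed at 0.58 (edgeR adjusted p = 0.0486). CEL differed from LPS by 0.52 ± 0.27 (edgeR adjusted p = 0.132) and from CE by -0.08 ± 0.27 (edgeR adjusted p = 0.873).

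The relative abundance of the members changed as well as their sum. Added together, the 9 genes held 45.5 ± 9.81 TPM in NC, 2911 ± 479 in LPS, 1584 ± 46.0 in CE and 1009 ± 35.4 in CEL. The sum in LPS was therefore 1.84 times that in CE and 2.88 times that in CEL. The sums in NC 3 and LPS 1 are lowered by the ribosomal RNA in those libraries, and LPS ranged from 2420 to 3378 TPM. CCL5 made up 86.9 ± 2.03% of the summed TPM in NC and 8.51 ± 0.768% in LPS, and its share was 17.5 ± 0.231% in CE and 26.3 ± 1.17% in CEL. CCL2 made up 8.62 ± 2.34% in NC and 63.2 ± 0.863% in LPS, then 55.7 ± 0.391% in CE and 41.2 ± 1.28% in CEL. The share of CCL3 was 6.59 ± 0.232% in LPS, 14.4 ± 0.296% in CE and 16.1 ± 0.34% in CEL, and that of CCL8 was 5.11 ± 0.0767%, 0.564 ± 0.0797% and 0.275 ± 0.04%. These shares are per library, so the ribosomal RNA in NC 3 and LPS 1 does not enter them.

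**Figure D3:**
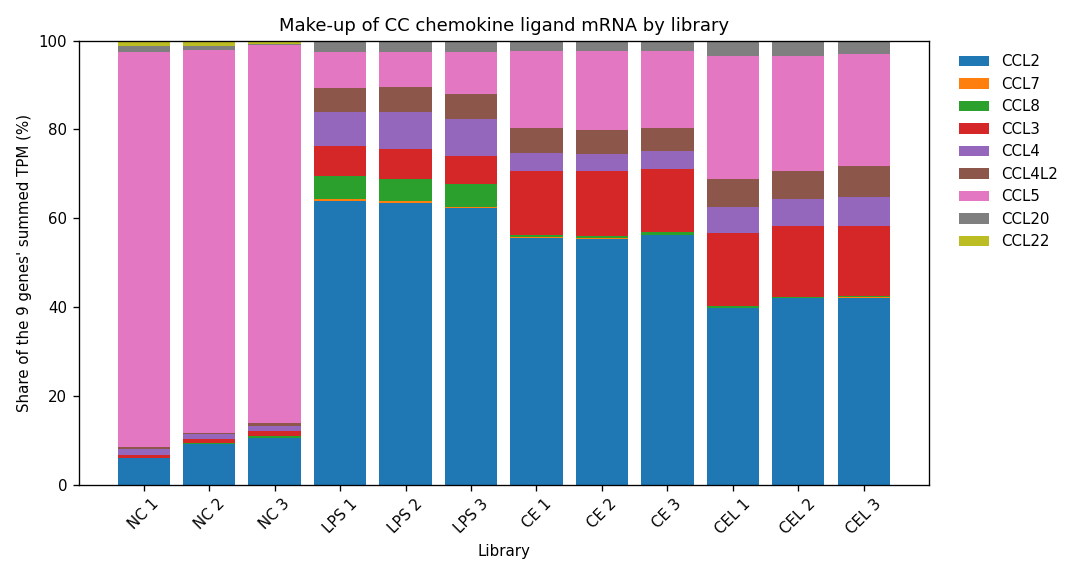
Share of the summed TPM of the 9 chemokine genes held by each gene in each of the 12 libraries (stacked bars from 0 to 100%). CCL5 fills 86.9% of the NC bars on average, CCL2 is the largest share in LPS (63.2%), CE (55.7%) and CEL (41.2%), and CCL3 widens from 6.59% in LPS to 16.1% in CEL.

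Ordered by TPM, NC ran CCL5 (39.6), then CCL2 (3.80), and the other 7 genes, at 0.543 or less, overlapped their neighbours. In LPS the order was CCL2 (1839), CCL5 (248), CCL4 (238), CCL3 (191), CCL4L2 (161), CCL8 (149), CCL20 (73.8), CCL7 (10.4) and CCL22 (0.390). The ranges of the 5 genes from CCL5 to CCL8 overlapped from neighbour to neighbour, and the other neighbours were separate. Library by library, CCL4 stood above CCL3, CCL3 above CCL4L2 and CCL4L2 above CCL8 in all 3 of LPS, and CCL5 above CCL4 in 2. In CE the order was CCL2 (882), CCL5 (277), CCL3 (228), CCL4L2 (85.3), CCL4 (64.0), CCL20 (36.1), CCL8 (8.93), CCL7 (1.78) and CCL22 (0.603), with no neighbours overlapping. CEL had the same order, and there only CCL4L2 (66.1) and CCL4 (62.6) overlapped. CCL4 stood above CCL3 in all 3 LPS libraries and below it in all 3 of CE and of CEL, an order that rests on the estimated split of reads between near-identical copies. With copies added, CCL3 plus CCL3L3 stood above CCL4 plus CCL4L2 in every library of all 4 groups, at 431 ± 70.3 and 400 ± 77.0 TPM in LPS.

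Copies complicate CCL3 and CCL4. In GENCODE 29, 182 of the 855 stretches of 50 bases in the longest CCL4 transcript (21.3%) also occur in CCL4L2, and 72 of the 729 in CCL3 (9.88%) occur in CCL3L3. With stretches of 100 bases these were 45 of 805 (5.59%) and 0 of 679. The estimated counts of CCL4 and CCL4L2 were whole within 0.005 in only 3 of 12 libraries each, but their sum was whole in 12 of 12, and for CCL3 and CCL3L3 the sum was whole in 1. The split between CCL4 and CCL4L2 in the deposited counts is therefore an estimate. The ratio of CCL4L2 to CCL4 counts was 0.675 ± 0.00972 in LPS, 1.42 ± 0.0811 in CE and 1.20 ± 0.00856 in CEL, without overlap between groups. The ratio of CCL3L3 to CCL3 was 1.26 ± 0.0173 in LPS, 1.23 ± 0.0534 in CE and 0.792 ± 0.0102 in CEL, with CEL below both others. Each non-overlapping comparison gave p = 0.1 in a two-sided exact permutation test, the smallest p that 3 against 3 allows, and 0.114 after adjustment over the 8 comparisons.

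**Figure D4:**
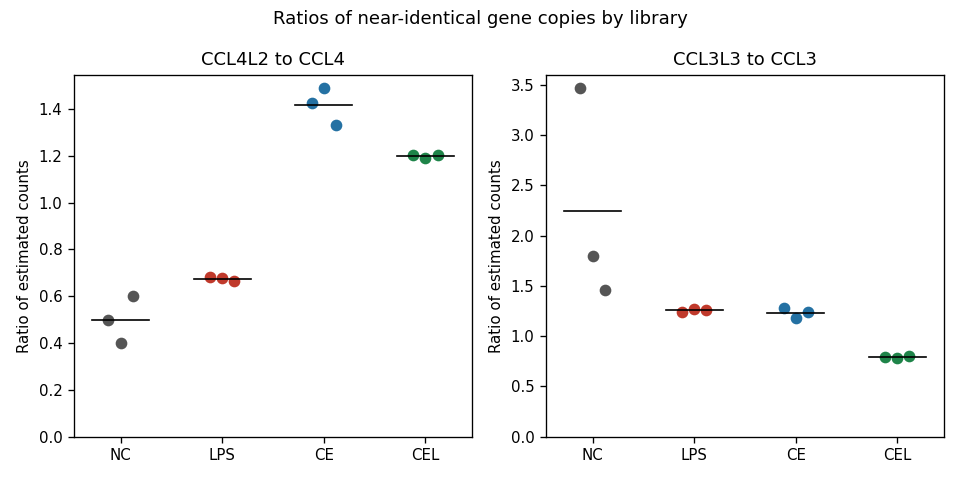
Ratio of estimated counts of CCL4L2 to CCL4 and of CCL3L3 to CCL3 in each library, with bars at group means and axes from 0. CCL4L2 to CCL4 lies near 0.675 in LPS and at 1.42 and 1.20 in CE and CEL, and CCL3L3 to CCL3 lies at 1.26 and 1.23 in LPS and CE and 0.792 in CEL; the NC ratios rest on few counts.

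With each copy added to its gene, the changes of CCL3 and CCL4 kept their sides of the threshold. The call of CCL4L2 between CEL and CE was not kept in the sum, and changed members there went from 4 to 3. CCL4 plus CCL4L2 differed by -1.48 between CE and LPS, by -1.78 between CEL and LPS and by -0.30 between CEL and CE (edgeR adjusted p = 0.0599). CCL3 plus CCL3L3 differed by 0.12 between CE and LPS (edgeR adjusted p = 0.271), by -0.75 between CEL and LPS and by -0.88 between CEL and CE. CCL3L3 alone stood at 140, 144 and 117 CPM in LPS, at 163, 131 and 139 in CE and at 59.6, 63.3 and 65.9 in CEL. It was 2.30-fold lower in CEL than in CE (-1.20 ± 0.10, edgeR adjusted p = 1.76e-05).

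The genes most like each member were those with the highest Pearson r of log2 CPM over the 12 libraries among 7455 candidates whose mean log2 CPM was 3 or more. The libraries fall into 4 groups, so these r values describe the shape of the group steps, not their size, and carry no test. PARP14 rose 10.9-fold with the stimulus and was 1.30-fold lower in CE than in LPS, against 439-fold and 2.14-fold for CCL2. PLSCR1 and CCL5 were closer in size, rising 7.18-fold and 5.67-fold with the stimulus. CCL2 was closest to PARP14 (r = 0.999), CCL3 to IFIT3 and SLAMF8, and CCL5 to PLSCR1 and IFITM1 (all 0.999). CCL4 was closest to MPEG1 and C3AR1, and CCL4L2 to IL7R and FCER1G (all 0.999). CCL20 was closest to IFI44L and IL7R (0.997 and 0.996), CCL8 to SERPINA1 and MCOLN2 (0.994 and 0.993), and CCL7 to IL1RN and SLC7A7 (0.989 and 0.986). CCL22 had no close match, its highest being IMMP1L and TTC5 (0.825 and 0.819). Among the members, CCL7 and CCL8 correlated at 0.98 with each other, and CCL8 with CCL5 at 0.76.

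Of 19 other CC ligands listed, 17 were in the table and 7 were tested, the rest reaching at most 0.322 CPM in any library. With the stimulus 4 of the 7 rose, 2 fell and 1 did not pass, where 22.4% of all tested genes rose and 23.5% fell. Their median log2 change was 6.84, or 5.13 with CCL1 and CCL19 at their bounds, since both had 0 counts in NC, beside -0.01 over all tested genes. CCL1, a ligand of CCR8, stood at 2.66 ± 0.458 CPM in LPS, 0.776 ± 0.145 in CE and 0.193 ± 0.0284 in CEL. It fell in CE against LPS (edgeR adjusted p = 0.000317). In CEL it was lower still but below the filter on low counts, so no test is given for that step. CCL13, a further monocyte chemoattractant protein, stood at 2.47 ± 0.17 CPM in LPS and 0.34 ± 0.101 in CE, a 7.15-fold fall. It passed the filter on low counts through LPS, so no test is given for CCL13. CCL28, a mucosal chemokine, took the opposite course. It fell with the stimulus from 7.84 ± 0.392 to 4.72 ± 0.30 CPM (edgeR adjusted p = 7.48e-05) and rose to 12.1 ± 0.741 in CE and 15.7 ± 1.07 in CEL (edgeR adjusted p = 4.65e-07 for CE against LPS and 0.0121 for CEL against CE). Among the 7, CE against LPS had 1 higher, 3 lower and 3 that did not pass (median -1.60), CEL against LPS had 2 higher and 5 lower (median -1.09), and CEL against CE had 2 higher, 2 lower and 3 that did not pass (median -0.51). Over all tested genes these comparisons had 28.8% higher and 20.7% lower (median 0.08), 28.7% and 27.2% (median -0.03), and 8.78% and 14.8% (median -0.09). Taken group by group, CCL13 and CCL19 were below the filter in CE and CEL, CCL1 in CEL, and CCL24 in LPS and CE. They entered through the groups where they are high. The counts and medians of the 7 therefore describe these genes and support nothing further.

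Receptors for these ligands were also measured, 6 of 14 passing the filter. With the stimulus 4 rose and 2 fell (median 1.19), beside 22.4% and 23.5% of all tested genes (median -0.01). In CE against LPS 2 rose, 2 fell and 2 did not pass (median 0.03), and in CEL against LPS 2 rose, 3 fell and 1 did not pass (median -0.45). In CEL against CE 4 fell, none rose and 2 did not pass (median -0.69). The receptors' 2 rises and 2 falls in CE lie near the background of 28.8% and 20.7% (median 0.08). That of CEL against LPS was 28.7% and 27.2% (median -0.03), and that of CEL against CE was 8.78% and 14.8% (median -0.09). CCR2, the receptor of CCL2, CCL7 and CCL8, stood at 244, 228 and 238 CPM in NC and 130, 131 and 120 in LPS. It stood at 12.0, 10.6 and 11.6 CPM in CE and 4.98, 5.76 and 6.61 in CEL. Its 4 groups did not overlap and each step went down. CCR2 was 11.1-fold lower in CE than in LPS (-3.48 ± 0.09, edgeR adjusted p = 4.2e-10) and 1.97-fold lower in CEL than in CE (-0.98 ± 0.09, edgeR adjusted p = 3.03e-05).

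CCR1, a receptor of CCL3 and CCL5, rose 4.26-fold with the stimulus, from 40.8 ± 0.681 to 174 ± 9.94 CPM. It stood at 179 ± 16.1 CPM in CE (edgeR adjusted p = 0.642 against LPS) and at 132 ± 7.98 in CEL, 1.36-fold below CE (edgeR adjusted p = 0.000974). CCRL2, an atypical receptor that binds chemerin, stood at 3.44 ± 0.406 CPM in LPS, rose to 8.99 ± 0.911 in CE (edgeR adjusted p = 9.21e-06) and was 4.95 ± 0.151 in CEL, below CE (edgeR adjusted p = 0.0011). CCR7, the lymph node homing receptor, stood at 0.0872 ± 0.0758 CPM in NC and 3.62 ± 0.597 in LPS (edgeR adjusted p = 3.42e-06). It passed in neither drug comparison with LPS. CCR4 and CCR6, the receptors of CCL22 and CCL20, did not pass the filter.

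**Figure D5:**
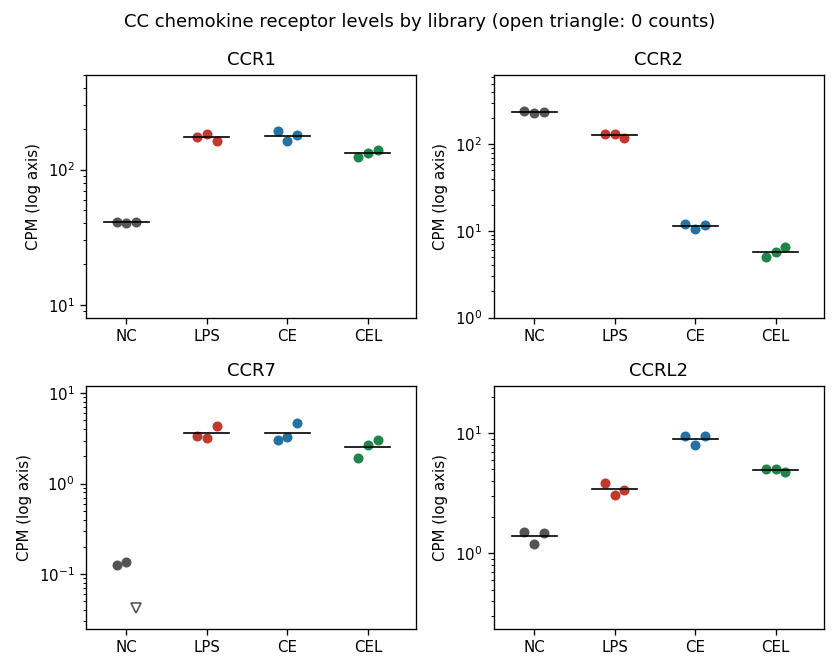
CPM of the 4 named CC chemokine receptors, CCR1, CCR2, CCR7 and CCRL2, in each of the 12 libraries (log axis, bars at group means where no library is at 0, open triangle at 0 counts). CCR2 steps down from 237 CPM in NC to 127 in LPS, 11.4 in CE and 5.78 in CEL, while CCR1 holds at 174 and 179 in LPS and CE.

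Of 14 tested NF-kB genes, 9 rose with the stimulus, none fell and 5 did not pass (median 2.04). In CE against LPS 5 rose, none fell and 9 did not pass (median 0.58), in CEL against LPS 6 rose and 8 did not pass (median 0.51), and in CEL against CE 3 rose and 11 did not pass (median 0.01). The shares of all tested genes that rose in these 4 comparisons were 22.4%, 28.8%, 28.7% and 8.78%, those that fell 23.5%, 20.7%, 27.2% and 14.8%, and the medians -0.01, 0.08, -0.03 and -0.09. NFKBIA, the inhibitor that NF-kB itself induces, stood at 29.3 ± 1.19 CPM in NC, 175 ± 4.65 in LPS, 297 ± 9.48 in CE and 409 ± 6.87 in CEL. TNFAIP3, the A20 ubiquitin-editing enzyme that restrains NF-kB signalling, stood at 174 ± 5.20 CPM in LPS, 474 ± 55.6 in CE and 619 ± 31.1 in CEL. REL, an NF-kB subunit, stood at 64.0 ± 3.71, 110 ± 8.72 and 147 ± 6.07. All 3 rose in CE against LPS and again in CEL against CE, the largest edgeR adjusted p among these 6 tests being 0.00379. NFKBIZ, a nuclear IkB protein, stood at 34.1 ± 1.32 CPM in LPS and 38.2 ± 9.74 in CE (edgeR adjusted p = 0.432).

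Of 13 tested interferon and STAT genes, 9 rose with the stimulus, 1 fell and 3 did not pass (median 1.01). In CE against LPS 5 rose, 3 fell and 5 did not pass (median -0.23), in CEL against LPS 5 rose, 4 fell and 4 did not pass (median -0.54), and in CEL against CE 1 rose, 3 fell and 9 did not pass (median -0.01). Of all tested genes, 22.4% rose and 23.5% fell with the stimulus (median -0.01), and the drug comparisons had 28.8% and 20.7% (median 0.08), 28.7% and 27.2% (median -0.03), and 8.78% and 14.8% (median -0.09). The counts of these interferon and STAT genes in the 3 drug comparisons lie near that background. STAT2, a transcription factor of the type I interferon response, stood at 31.8 ± 0.416 CPM in NC, 150 ± 1.33 in LPS, 103 ± 8.50 in CE and 61.1 ± 1.80 in CEL. It fell 1.46-fold in CE against LPS (-0.55 ± 0.06, edgeR adjusted p = 9.82e-06) and 1.68-fold in CEL against CE (-0.75 ± 0.06, edgeR adjusted p = 7.11e-06). IRF9, the DNA-binding partner of STAT2, went the other way, at 33.2 ± 0.671 CPM in LPS and 56.3 ± 5.19 in CE (edgeR adjusted p = 4.3e-06).

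Of 10 tested calcineurin and NFAT genes, 3 rose with the stimulus, 1 fell and 6 did not pass (median 0.18). In CE against LPS and in CEL against LPS 6 rose, 3 fell and 1 did not pass (medians 0.74 and 0.66), and in CEL against CE none passed at either sign (median -0.04). All tested genes had 22.4% rising and 23.5% falling with the stimulus (median -0.01), 28.8% and 20.7% in CE against LPS (median 0.08), 28.7% and 27.2% in CEL against LPS (median -0.03), and 8.78% and 14.8% in CEL against CE (median -0.09). RCAN1, a calcineurin regulator that NFAT induces, stood at 17.5 ± 1.42 CPM in NC, 396 ± 14.2 in LPS, 10.9 ± 2.00 in CE and 11.8 ± 0.506 in CEL. It was 36.3-fold lower in CE than in LPS (-5.18 ± 0.12, edgeR adjusted p = 1.89e-10). Of 10 mRNA decay genes, 5 rose with the stimulus, 1 fell and 4 did not pass (median 0.37), and in each drug group against LPS 3 rose, 1 fell and 6 did not pass (medians 0.16 and 0.17). In CEL against CE 2 rose, none fell and 8 did not pass (median 0.01). The 3 rises among 10 mRNA decay genes in each drug group are at the share of all genes that rose, 28.8% and 28.7%. ZC3H12C, of the Regnase family of mRNA-cleaving enzymes, stood at 41.2 ± 3.46 CPM in LPS, 338 ± 40.3 in CE and 452 ± 27.4 in CEL, 8.19-fold higher in CE than in LPS (3.03 ± 0.09, edgeR adjusted p = 1.17e-09). RC3H1, or Roquin, stood at 64.7 ± 4.96, 130 ± 13.4 and 163 ± 7.86 CPM.

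Of 11 genes for proteins that cut or process chemokines, 8 rose with the stimulus and 3 fell (median 1.05). In CE against LPS 4 rose, 4 fell and 3 did not pass (median -0.11), in CEL against LPS 2 rose, 3 fell and 6 did not pass (median -0.34), and in CEL against CE 1 rose, 2 fell and 8 did not pass (median -0.24). Among all tested genes the stimulus raised 22.4% and lowered 23.5% (median -0.01), CE against LPS had 28.8% and 20.7% (median 0.08), CEL against LPS 28.7% and 27.2% (median -0.03), and CEL against CE 8.78% and 14.8% (median -0.09). In CEL the counts of processing genes lie near or below these shares. CTSG, a serine protease of myeloid granules, fell 18.3-fold with the stimulus, from 510 ± 26.1 to 27.9 ± 0.378 CPM (edgeR adjusted p = 1.93e-11). DPP4, a peptidase that trims the amino end of several chemokines, stood at 4.38 ± 0.851 CPM in NC and 0.468 ± 0.0369 in LPS. Its LPS level lay near the filter on low counts, so no test is given for DPP4. ADAM17, a sheddase, rose from 67.3 ± 3.11 to 106 ± 8.53 CPM and to 174 ± 7.01 in CE (edgeR adjusted p = 1.38e-05 and 5.74e-06).

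Monocytic markers also differed between the groups. Of 9 tested, 5 rose with the stimulus, 1 fell and 3 did not pass (median 1.15), and in each drug group against LPS 2 rose, 3 fell and 4 did not pass (medians 0.12 and -0.36). In CEL against CE 4 fell, none rose and 5 did not pass (median -0.60). For all tested genes the shares rising and falling were 22.4% and 23.5% with the stimulus (median -0.01), 28.8% and 20.7% in CE against LPS (median 0.08), 28.7% and 27.2% in CEL against LPS (median -0.03), and 8.78% and 14.8% in CEL against CE (median -0.09). The markers' summed level was 966 to 992 CPM in NC, 792 to 876 in LPS, 503 to 780 in CE and 453 to 527 in CEL. CD14, the lipopolysaccharide co-receptor, stood at 0.872 ± 0.241 CPM in NC, 44.0 ± 3.17 in LPS, 6.44 ± 0.865 in CE and 2.70 ± 0.411 in CEL. FCGR1A, a high-affinity Fc receptor, stood at 99.3 ± 5.69, 195 ± 4.85, 36.7 ± 3.73 and 22.6 ± 2.72 CPM, and LYZ, lysozyme, at 595 ± 17.0, 142 ± 7.66, 27.7 ± 1.65 and 20.3 ± 1.30. CD68 stayed at 174 ± 9.08 CPM in CE and 181 ± 1.30 in CEL. NKG7 stood at 2.82 ± 0.297, 6.44 ± 0.327, 2.86 ± 0.0944 and 2.04 ± 0.414 CPM. The part of these markers in the chemokine results was not tested.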

How the data were processed

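RNA was measured in 12 libraries from oligo-dT captured messenger RNA, per the labels' protocols, on build hg38, per the submitters' processing notes. Of the aligner, counter, strand setting and annotation, the sources used here name none. The authors deposited estimated counts per gene, of which 29.3% of nonzero values were not whole within 0.005, and deposited TPM, scaled by the authors to a fixed total per library. A deposited FPKM table was not used, since FPKM was a fixed multiple of TPM within a library (ratios within a factor of 1.0004 where TPM was above 50). Of the columns, 0 had no sample.

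Estimated counts were first rounded. Low genes were removed with filterByExpr (minimum count 10), scaled with TMM, and fitted with group as the term over all 12 libraries in edgeR 4.0.16 (R 4.3.3), with the quasi-likelihood F-test, two-sided, and Benjamini-Hochberg adjustment. The common dispersion was 0.0405, with 8 residual degrees of freedom. The script was tested on simulated data. The standard error is approximate, the log2 change divided by the square root of F. A floor is 3 counts over a group, and 95% intervals of ratios cover counting error only. The p-values measure the spread between these libraries, which may be technical. No 2 libraries of a group agreed within sampling noise (chi-square per degree of freedom 3.37 to 145). Alternatives were DESeq2 1.42.0, limma 3.58.1 on log2(TPM + 1) and log2(TPM + 0.1), other scalings, no filter, copies summed, each library left out, and the replicate block.

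Labels give a batch equal to the replicate number, and the numbers were taken to pair the samples in the replicate block alone. The main fit did not use them, so its p-values are unpaired. Of 18 same-numbered pairs, 6 had deviations from group means correlated above 0.1 (median -0.186), and 1 of the 12 libraries correlated best with its own number.

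Members and gene lists were chosen with earlier results of these data known. Named list genes are up to 4 per list by smallest p in LPS against NC or CE against LPS, and named matches are the 2 highest r per member. CCL19, CCL23, CCL24 and ACKR2 were named after their values were seen. Some genes that this rule selects are not reported here.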

Additional observations from a re-analysis of the deposited data

How the results depend on the processing

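Over 9 genes and 6 comparisons, 1140 alternative values kept their direction and side of the threshold, 16 lost a call, 5 gained one and 21 changed sign. All sign changes were of differences that did not pass. CCL3 between CE and LPS became -0.035 with upper quartile scaling and -0.015 with library size alone, and CCL5 became -0.032 and -0.015. CCL5 between CEL and LPS became -0.11, -0.089 and, with no filter, -0.075. With 1 library left out, CCL5 between CEL and CE ranged from -0.18 to 0.038, and CCL22 from -0.15 to 0.086. CCL22 ranged from -0.17 to 0.32 between CE and NC and from -0.19 to 0.24 between CEL and NC. Between CE and NC, CCL22 became -0.17 with upper quartile scaling, -0.060 with library size alone and -0.21 without NC 3 and LPS 1 together, an alternative chosen after seeing the data. Between CEL and NC these were -0.21, -0.096 and -0.26, and -0.0048 with no filter.

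Counts of all changed genes fell with limma on log2(TPM + 1) and log2(TPM + 0.1), from 6458 to 2963 and 2951 for LPS against NC, from 6972 to 3586 and 3545 for CE against LPS, from 7867 to 4984 and 4978 for CEL against LPS, and from 3321 to 266 and 225 for CEL against CE. There, changed members went from 4 to 2 with both. Without NC 3 and LPS 1 the counts were 4305 for LPS against NC and 2096 for CEL against CE. With 1 library left out, CEL against CE ranged from 2120 (without CEL 2) to 4066 (without CE 2). On log2(TPM + 1), the 1 added to every value understates the rises of low genes. That of CCL7 was 3.50, beside 6.71 on log2(TPM + 0.1). The cause of the lower counts of changed genes was not tested. Upper quartile scaling moved the median of all genes by -0.11 for LPS against NC (2604 higher and 4387 lower, beside 3152 and 3306), and by -0.17 for CE against LPS (2945 and 4000, beside 4057 and 2915). It moved it by -0.13 for CEL against LPS (3294 and 4590, beside 4039 and 3828), by -0.28 for CE against NC and by -0.25 for CEL against NC. Library size alone gave 3040 higher and 3833 lower for CE against LPS (shift -0.15), and 1581 and 1756 for CEL against CE, beside 1235 and 2086. With the replicate block the call of CCL4L2 between CEL and CE was lost, leaving 3 changed members, and no other call of a member changed. Library depth limits CCL7, CCL8 and CCL22, which rest on few counts in some groups.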

Other observations

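CCL24, an eosinophil-attracting ligand of CCR3 named here after its values were seen, was near the limit of detection in 3 groups and higher in CEL. It stood at 0.291, 0.0457 and 0.0571 CPM in NC, at 0.246, 0.568 and 0.400 in LPS, at 0.295, 0.0481 and 0.0482 in CE and at 3.90, 2.91 and 3.87 in CEL. Every CEL library lay above every other library. It passed the filter on low counts through CEL, so no test is given. CCL23, a ligand of CCR1, stood at 3.46 ± 0.398 CPM in NC, 1.79 ± 0.626 in LPS, 1.34 ± 0.185 in CE and 0.88 ± 0.356 in CEL. ACKR2, a decoy receptor that removes inflammatory CC chemokines, stood at 0.807 ± 0.189 CPM in untreated cells (NC). Its level was 0.123 ± 0.0469 CPM in LPS, 0.324 ± 0.0747 in CE and 0.396 ± 0.157 in CEL. Both CCL23 and ACKR2 were also named after their values were seen, and are given with no test.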
